A study of Mus musculus with 32 samples.

Results

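The genes described here are the 10 that build and hold in place the acetylcholine receptor of the neuromuscular junction, chosen by symbol from the 24421 genes of a mouse read count table. They are the muscle receptor subunits Chrna1, Chrnb1, Chrnd, Chrne and Chrng and the clustering genes Agrn, Lrp4, Musk, Dok7 and Rapsn, and all 10 symbols were found once. The sequenced RNA came from the muscles that move the eyeball (extraocular muscle, EOM), from a muscle of the lower leg (tibialis anterior, TA), and from samples labelled as oculomotor neuron (CN3) and abducens motor neuron (CN6). By the labels, albino mice (B6(CG)Tyr(c-2J)/J) gave 4 libraries of each tissue; they carry a changed tyrosinase gene. Pigmented C57BL/6 mice gave 4 more of each, 32 libraries in all. No treatment was given. Age, sex, time of collection, pooling and whether replicates are separate animals are not stated in the labels, so p-values cover the variation among these libraries only, which may be technical.

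At the neuromuscular junction the nerve ending releases acetylcholine onto a patch of muscle membrane packed with receptors. The receptor has 5 subunits: the alpha, beta and delta subunits are joined by gamma in fetal muscle and by epsilon in adult muscle, and gamma returns when adult muscle loses its nerve. The nerve secretes agrin, which binds LRP4 on the muscle and switches on the kinase MuSK with its adaptor DOK7, and rapsyn then anchors the receptors. Adult eye muscle is known for fibres with several nerve contacts and for keeping some gamma subunit, whereas most limb fibres have a single contact.

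The 250 bases before the RefSeq start of 4 genes are printed because their products carry the main contrasts: the fetal and adult subunits, the alpha subunit, which had the highest level per length in EOM, and the kinase that differed between the strains. They come from RefSeq on GRCm38.p6, which has the same coordinates as mm10, and leave out bases that GENCODE annotates as exon. Capitals mark E-boxes, spelled CANNTG, the motif bound by MyoD family factors, and the N-box, spelled CCGGAA, bound by Ets factors. Both strands were searched, CAGCTG is 1 form of CANNTG, and E-box and N-box matches do not overlap. Of 32851 mouse promoter windows of this length 66.2% hold an E-box, 13.0% hold CAGCTG, 1.26% hold CAGCTG at least 2 times and 12.0% hold an N-box.
Chrng, chr1:87205561-87205809, plus strand: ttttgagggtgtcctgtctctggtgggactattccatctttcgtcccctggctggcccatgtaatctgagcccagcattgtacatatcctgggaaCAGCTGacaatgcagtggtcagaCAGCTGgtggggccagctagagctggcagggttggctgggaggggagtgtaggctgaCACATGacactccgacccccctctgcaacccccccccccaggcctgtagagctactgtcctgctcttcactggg
Chrne, chr11:70619217-70619444, minus strand: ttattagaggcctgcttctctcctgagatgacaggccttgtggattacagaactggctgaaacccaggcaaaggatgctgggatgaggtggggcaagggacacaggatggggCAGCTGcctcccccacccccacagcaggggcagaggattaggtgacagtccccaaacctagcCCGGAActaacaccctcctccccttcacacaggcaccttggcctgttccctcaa
Chrna1, chr2:73580339-73580588, minus strand: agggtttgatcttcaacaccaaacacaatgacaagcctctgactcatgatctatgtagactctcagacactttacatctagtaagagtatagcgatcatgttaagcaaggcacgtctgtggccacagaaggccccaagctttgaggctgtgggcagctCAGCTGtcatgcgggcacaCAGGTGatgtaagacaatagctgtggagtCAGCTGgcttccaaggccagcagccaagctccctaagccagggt
Musk, chr4:58285712-58285959, plus strand: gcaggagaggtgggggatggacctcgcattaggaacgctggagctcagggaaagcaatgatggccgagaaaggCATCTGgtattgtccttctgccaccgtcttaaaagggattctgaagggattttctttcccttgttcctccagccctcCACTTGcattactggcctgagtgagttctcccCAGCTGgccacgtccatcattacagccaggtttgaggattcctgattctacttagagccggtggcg
The Chrng and Chrna1 windows hold 3 E-boxes each, 2 of them CAGCTG. The Chrne window holds 1 CAGCTG at base -138 from the start and 1 N-box at base -76, and is the only 1 of the 4 with an N-box. The Musk window holds 3 E-boxes, 1 of them CAGCTG. The windows of Chrnb1, Agrn and Dok7, which are not printed, hold 0 CAGCTG and 0 N-boxes. In them E-boxes number 3 for Chrnb1, 0 and 1 for the 2 starts of Agrn, and 1 and 0 for those of Dok7. CAGCTG is therefore not shared by all genes of the set. These matches describe letters and are not measured binding sites. The Chrng window lies inside the span of the gene in GENCODE, which has an earlier start at base 87204657.

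Library totals ran from 18544334 to 44254021 counts. All 16 C57BL/6 libraries carried the fast fibre or neuronal genes of their label, whereas 8 of 16 albino libraries did not. Replicates 1 and 2 of both albino muscle labels had brain genes in place of muscle genes, and replicates 3 and 4 of both albino nucleus labels had muscle genes. Main comparisons therefore use the 24 libraries that fit their label, 4 C57BL/6 and 2 albino in each tissue. Beside them stand values in which the other 8 were placed by their markers (4 albino libraries a tissue), the libraries labelled CN3 3 and 4 with EOM because of their eye muscle myosin Myh13 (3742 and 3765 CPM) and those labelled CN6 3 and 4 with TA (19.5 and 94.0 CPM). Myh13 read 4378 to 4459 CPM in albino and 4272 to 4980 CPM in C57BL/6 EOM. In TA it read 23.8 to 24.9 CPM in albino and 23.8 to 34.8 CPM in C57BL/6, so the library labelled albino CN6 4 stands apart from the TA libraries. CPM is the count scaled to a common library total. The nuclei are less certain: C57BL/6 CN3 held only 4.21 to 7.34 CPM of 8 summed cholinergic motor neuron genes, with Phox2a and Mnx1 at 0, against 53.0 to 103 CPM in albino CN3 and 82.8 to 173 CPM in C57BL/6 CN6, and albino CN6 1 had 2.61 CPM of the hindbrain gene Hoxb3, against 20.8 CPM in albino CN6 2 and 23.0 to 31.4 CPM in C57BL/6 CN6.

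In C57BL/6 mice the receptor subunits were muscle genes with their highest level in EOM. Chrna1, which encodes the alpha subunit that binds acetylcholine (chromosome 2, 73563215 to 73580338, mm10), read 236, 218, 202 and 201 CPM in C57BL/6 EOM and 17.4, 18.0, 16.9 and 18.2 CPM in C57BL/6 TA. It read 0.746 to 1.5 CPM in C57BL/6 CN3 and 1.15 to 1.504 CPM in C57BL/6 CN6. EOM stood above TA and TA above the nuclei with no overlap, while the nuclei overlapped each other. Chrnb1, the beta subunit (chromosome 11, 69784036 to 69795943), kept the same order at 87.3 to 97.8 CPM in EOM, 30.0 to 34.2 CPM in TA, 2.28 to 3.03 CPM in CN3 and 2.56 to 3.87 CPM in CN6. Chrnd, the delta subunit (chromosome 1, 87190607 to 87200070), read 43.8, 40.6, 36.0 and 35.6 CPM in EOM and 4.16, 4.41, 2.99 and 3.72 CPM in TA. It had 0 counts in all 8 C57BL/6 brain libraries, which allows up to 0.0678 to 0.0977 CPM a library, and 0 counts in all 8 albino libraries that looked like brain. Chrnd was above 0 in all 16 libraries with muscle genes.

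The adult and fetal subunits differed by more than an order of magnitude in reads. Chrne, the adult epsilon subunit (chromosome 11, 70614883 to 70619216), read 69.9, 57.8, 69.4 and 65.5 CPM in C57BL/6 EOM and 14.0, 14.4, 13.5 and 12.1 CPM in C57BL/6 TA, and at most 0.251 CPM in C57BL/6 CN3 or CN6. Its span overlaps 4930544D05Rik on the opposite strand by 1043 bases but by 0 exon bases, and that gene reached at most 5.31 CPM in C57BL/6 EOM. Chrng, the fetal gamma subunit (chromosome 1, 87204657 to 87212694), had 40, 44, 33 and 32 counts in C57BL/6 EOM, or 1.44 to 2.37 CPM. It had 2, 2, 0 and 2 counts in C57BL/6 TA and 0 in every C57BL/6 CN3 and CN6 library. The 0 in C57BL/6 TA 3 allows up to 0.130 CPM, so Chrng in TA is at the edge of what these depths can show. These limits, and those for Chrnd in brain, cover counting error only and take each count as an independent read. If both mates of a read pair were counted, a possibility given below, they are too low.

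**Figure D1:**
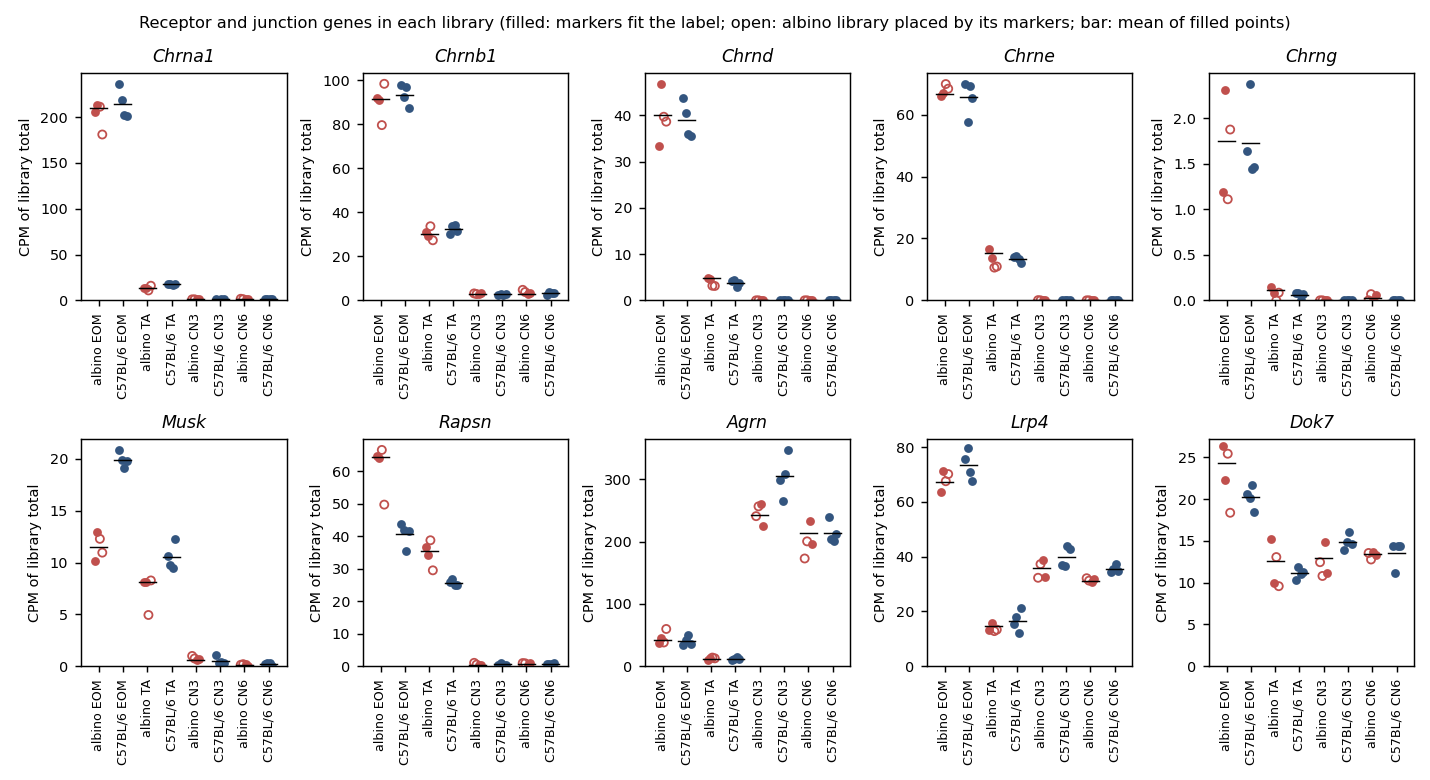
CPM (y axis, a scale of its own for each gene) of the 10 genes in each library, by strain and tissue; filled points are libraries whose markers fit their label, open points are albino libraries placed by their markers, and bars are means of the filled points. The 5 subunits, Musk and Rapsn are near 0 in CN3 and CN6, Agrn is highest there (mean 305 CPM in C57BL/6 CN3), and Lrp4 and Dok7 are present in all 4 tissues.

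Per kilobase of exon the subunits can be set side by side, although the annotation behind the counts is not stated and the exon lengths come from GENCODE. In EOM the mean level per kilobase was 47.8 ± 1.28 CPM for Chrna1, 36.2 ± 0.249 for Chrnb1, 39.4 ± 0.345 for Chrne, 12.2 ± 2.90 for Chrnd and 0.420 ± 0.191 for Chrng in albino (SD, n = 2). In C57BL/6 EOM it was 48.9 ± 3.78, 37.0 ± 1.91, 38.8 ± 3.31, 11.9 ± 1.19 and 0.415 ± 0.105 CPM for the same subunits in that order (SD, n = 4). Chrna1 led in EOM in both strains. In C57BL/6 TA Chrnb1 led instead, at 12.8 ± 0.783 CPM per kilobase, before Chrne at 7.99 ± 0.584, Chrna1 at 4.02 ± 0.136, Chrnd at 1.16 ± 0.190 and Chrng at 0.0137 ± 0.00918 (SD, n = 4). In albino TA the order was the same, with Chrnb1 at 11.9 ± 0.392, Chrne at 8.99 ± 1.15 and Chrna1 at 3.06 ± 0.0143 CPM per kilobase (SD, n = 2).

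**Figure D2:**
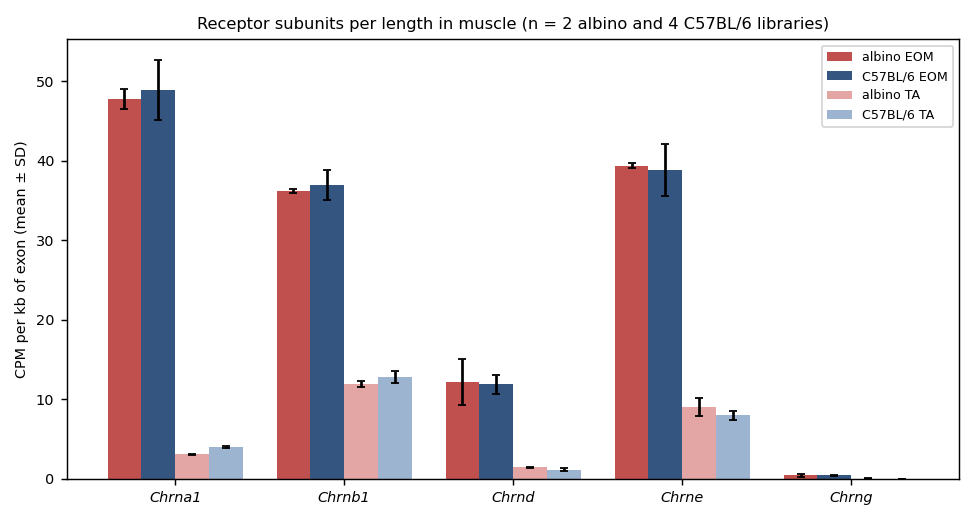
Mean CPM per kilobase of exon (y axis) of the 5 receptor subunits in albino and C57BL/6 EOM and TA, with bars starting at 0 and error bars of 1 SD (n = 2 albino and 4 C57BL/6 libraries). Chrna1 has the tallest bar in EOM (47.8 and 48.9 CPM per kilobase) and Chrnb1 in TA (11.9 and 12.8), while Chrng is barely above 0 in any group.

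The clustering genes did not share 1 pattern over the tissues. Musk (chromosome 4, 58285960 to 58374303) and Rapsn (chromosome 2, 91035620 to 91045729) were muscle genes: C57BL/6 EOM read 19.1 to 20.9 CPM of Musk and 35.5 to 43.6 CPM of Rapsn, C57BL/6 TA 9.44 to 12.3 and 24.9 to 27.0 CPM, and the C57BL/6 nuclei at most 1.11 and 0.926 CPM. Agrn, whose product neurons and muscle both make (chromosome 4, 156165290 to 156197488), ran the other way. It read 299, 265, 309 and 347 CPM in C57BL/6 CN3 and 240, 204, 200 and 213 CPM in C57BL/6 CN6, against 34.7 to 50.6 CPM in EOM and 10.2 to 14.4 CPM in TA, with no overlap between neighbouring tissues. The count table does not separate the neural splice form of agrin that clusters receptors from other forms. Lrp4 (chromosome 2, 91457511 to 91513779) was highest in C57BL/6 EOM at 67.4 to 79.5 CPM, followed by the overlapping CN3 and CN6 at 36.6 to 43.8 and 34.5 to 37.4 CPM, and lowest in TA at 12.2 to 21.2 CPM. Dok7 (chromosome 5, 35056766 to 35087839) had the narrowest range, with 18.5 to 21.6 CPM in EOM above 13.9 to 16.1 in CN3, 11.1 to 14.4 in CN6 and 10.3 to 11.9 in TA, where the last 3 overlap as neighbours. In whole-tissue RNA fewer cells of a type and less RNA per cell cannot be told apart.

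Eye muscle was compared with limb muscle within C57BL/6 by edgeR's quasi-likelihood test with Benjamini-Hochberg adjustment. Of the 10 genes 8 rose in EOM relative to TA and 0 fell, where 77.2% of 14408 genes were called and 42.3% were called higher. Fitted fold changes use TMM scaling factors, which lower the difference between EOM and TA by 0.67 on the log2 scale relative to CPM; with library totals alone the median of all genes stood at 0.775 instead of 0.102. All 5 receptor subunits rose. Chrna1 rose by 2.93 ± 0.07 on the log2 scale (SE, adjusted p = 1.19e-11), Chrnd by 2.67 ± 0.12 (adjusted p = 2.01e-09), Chrne by 1.61 ± 0.08 (adjusted p = 4.35e-09) and Chrnb1 by 0.86 ± 0.06 (adjusted p = 8.75e-08), each with no overlap between 4 EOM and 4 TA libraries. Chrng rose by 4.11 ± 0.51 (adjusted p = 1.24e-05), a fold change whose TA side rests on 6 counts.

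Among the clustering genes, those at the start of the pathway rose. Lrp4, the agrin receptor, rose by 1.46 ± 0.13 on the log2 scale (adjusted p = 5.53e-07) and Agrn by 1.08 ± 0.13 (adjusted p = 8.79e-06). Musk was called at 0.25 ± 0.10 (adjusted p = 0.0385), but the call was lost in 6 of 8 fits that each left out 1 library (it held without EOM 3 and without TA 4, and the lost values were 0.19 to 0.24), with the DESeq2 test (adjusted p = 0.0566) and with no filter (adjusted p = 0.0645). Neither Dok7 (0.19 ± 0.08, adjusted p = 0.0606) nor Rapsn (-0.01 ± 0.08, adjusted p = 0.913) was called, although Dok7 was called higher under upper quartile scaling (0.30, adjusted p = 0.00728). The direction of these 3 depends on the scaling. With library totals they were called higher in EOM at 0.92 for Musk, 0.86 for Dok7 and 0.66 for Rapsn, whereas with offsets for GC content and exon length Dok7 (-0.31) and Rapsn (-0.61) were called lower and Musk stood at -0.19 (adjusted p = 0.0987). The other 7 genes were called higher under each of these scalings. Over all genes 6089 were called higher and 5037 lower with TMM, 6674 and 4398 under upper quartile scaling, 10493 and 1594 with library totals, and 4252 and 7648 with the offsets.

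**Figure D3:**
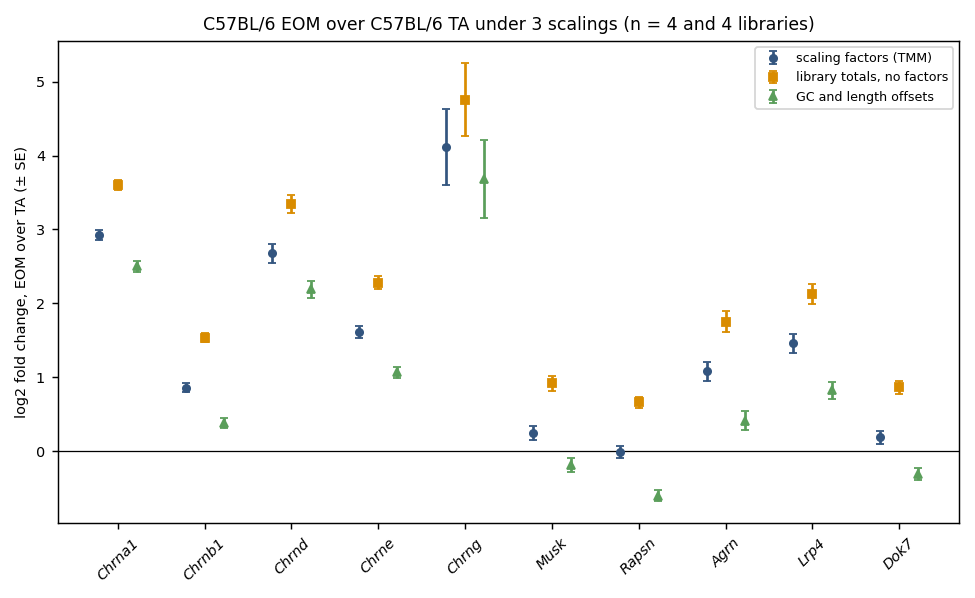
Log2 fold change of C57BL/6 EOM over C57BL/6 TA (y axis, error bars of 1 SE, n = 4 and 4 libraries) of the 10 genes under TMM factors, library totals and offsets for GC content and exon length. The 5 subunits, Agrn and Lrp4 stay above 0 under all 3, while Musk, Rapsn and Dok7 are above 0 with library totals (0.92, 0.66 and 0.86) and below 0 with the offsets (-0.19, -0.61 and -0.31).

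The receptor subunits were higher in EOM in albino mice too. Between albino EOM and albino TA 7 of the 10 genes rose and 0 fell, where 57.8% of 14834 genes were called and 30.2% were called higher, with 2 libraries a group. Chrna1 read 206 and 213 CPM in albino EOM and 13.5 and 13.4 CPM in albino TA and rose by 3.27 ± 0.09 on the log2 scale (adjusted p = 1.26e-05). Chrnd rose by 2.39 ± 0.21, Lrp4 by 1.51 ± 0.13, Chrne by 1.44 ± 0.12, Agrn by 1.13 ± 0.15 and Chrnb1 by 0.91 ± 0.09 (SE, edgeR). Chrng rose by 3.17 ± 0.68 (adjusted p = 0.00901), with 28 and 48 counts in albino EOM and 4 and 2 in albino TA, and was not called without albino EOM 4 (adjusted p = 0.0645) or albino TA 4 (adjusted p = 0.0541). Musk (-0.18 ± 0.18), Dok7 (0.26 ± 0.22) and Rapsn (0.17 ± 0.09) were not called, and with library totals all 3 were called higher (0.50, 0.95 and 0.86). With the offsets Musk (-0.52 ± 0.19, adjusted p = 0.0497) and Rapsn (-0.52 ± 0.10) were called lower and Dok7 stood at -0.24 ± 0.19. Rapsn was also called higher under upper quartile scaling (0.33, adjusted p = 0.0245). Dok7 was called higher without albino TA 3 (0.61, adjusted p = 0.0379) and stood at -0.04 without albino TA 4. With 4 libraries a group placed by markers all 5 subunits, Agrn and Lrp4 were called higher, where 68.3% of genes were called and 36.6% called higher, and Chrng stood at 3.49 ± 0.56 (adjusted p = 0.000267). Over all genes 4473 were called higher and 4101 lower with TMM, 9597 and 1091 with library totals, 5300 and 3117 under upper quartile scaling, and 3125 and 6318 with the offsets.

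The 2 muscles differ in their cell content as well. In this comparison 77.2% of all genes were called and 42.3% were called higher in EOM. Of the 8 Schwann cell genes all 8 rose in C57BL/6 EOM relative to TA, and their summed level was 941 to 1078 CPM in EOM and 96.0 to 153 CPM in TA. All 8 fibroblast genes rose, at 5183 to 5874 CPM in EOM and 452 to 646 CPM in TA, and all 10 fast fibre genes fell, at 62785 to 70261 and 155494 to 157159 CPM. The 8 cholinergic motor neuron genes summed to 6.24 to 12.6 CPM in EOM with Mnx1 at 0, and to 0.173 to 0.537 CPM in TA with Chat, Slc18a3, Slc5a7 and Mnx1 among those at 0. Of the 10 neuronal genes 5 were tested, 4 higher and 1 lower. Only 4 of the 10 were above 0 in any C57BL/6 TA library, and Snap25 and Syt1 were among those at 0. A gene at 0 in TA passes the filter through EOM alone and can only be called higher. The tally was thus partly set by the filter. Snap25 read 5.87 to 34.2 CPM in C57BL/6 EOM and 0 in all 4 C57BL/6 TA libraries. The sum of the 10 went the other way, at 143 to 216 CPM in EOM and 595 to 641 CPM in TA. Most of that sum was Camk2a, the 1 called lower, at 127 to 151 CPM in EOM and 594 to 640 CPM in TA. Satellite cell genes summed to 45.4 to 50.3 CPM in EOM and 27.5 to 30.5 CPM in TA. The part of these cells in the differences of the receptor and clustering genes was not tested.

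A ratio within each library does not depend on the scaling. Chrng gave 2.34, 4.10, 2.07 and 2.24 counts per 100 counts of Chrne in C57BL/6 EOM, and 0.571, 0.533, 0 and 0.590 in C57BL/6 TA. Every EOM library stood above every TA library. Summed over libraries there were 149 counts of Chrng to 5803 of Chrne in EOM (2.57 per 100) and 6 to 1376 in TA (0.436 per 100). With 0.5 counts added to each gene, the log2 ratio was higher in EOM by 2.43 (two-sided exact permutation test, p = 0.0286, the smallest that 4 against 4 allows; adjusted over 4 ratio comparisons, p = 0.0571). The albino libraries placed by markers gave a difference of 1.83 (exact permutation p = 0.0286, adjusted p = 0.0571, 4 and 4). No muscle library exceeded 4.10 Chrng counts per 100 of Chrne.

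Between the strains the ratio in EOM did not separate. The 2 albino EOM libraries gave 1.79 and 3.45 Chrng counts per 100 of Chrne, against 2.07 to 4.10 in C57BL/6 EOM, so the groups overlap. The difference in mean log2 ratio was -0.05 (exact permutation p = 0.933, the same after adjustment, where 2 against 4 cannot go below 0.133). With the 4 albino libraries placed by markers it was -0.18 (exact permutation p = 0.629, adjusted p = 0.838). Low counts in this table are mostly even (a median of 80.9% of counts from 1 to 10 a library, against 49.9% of counts in the highest class tabulated), the pattern seen when both mates of a read pair are counted, so 2 counts of Chrng may be a single fragment.

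**Figure D4:**
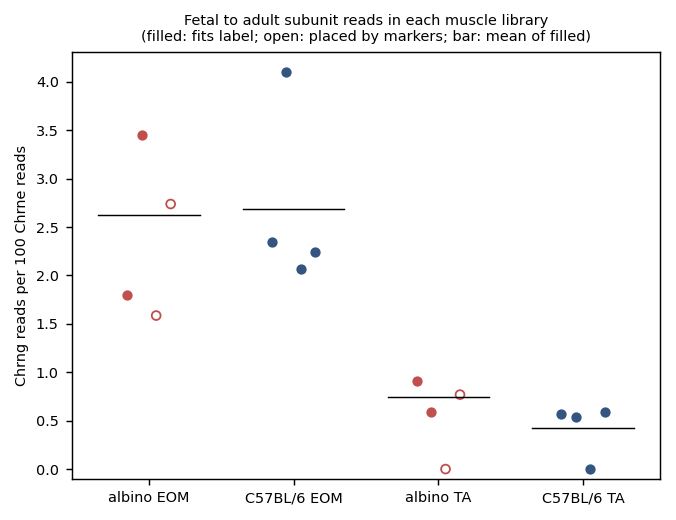
Counts of Chrng per 100 counts of Chrne (y axis) in each EOM and TA library of both strains; filled points fit their label, open points are albino libraries placed by their markers, and bars are means of the filled points. EOM libraries lie between 1.59 and 4.10 and TA libraries between 0 and 0.913, with no overlap between the muscles and overlap between the strains within EOM.

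Albino and C57BL/6 EOM differed in 2 of the 10 genes, where 32.0% of 15397 genes were called. Musk, the kinase through which agrin acts, read 10.2 and 12.9 CPM in albino EOM and 20.9, 19.9, 19.1 and 19.8 CPM in C57BL/6 EOM. The groups did not overlap, and Musk fell by 0.77 on the log2 scale (SE 0.14, edgeR adjusted p = 0.00411). Rapsn, the receptor anchor, went the other way, with 64.7 and 64.1 CPM in albino EOM and 43.6, 41.8, 35.5 and 41.7 CPM in C57BL/6 EOM, and rose by 0.68 ± 0.10 (adjusted p = 0.00227). With the 4 albino libraries placed by markers Musk stood at -0.78 ± 0.11 (adjusted p = 5.4e-04) and Rapsn at 0.59 ± 0.12 (adjusted p = 0.0040), where 39.0% of genes were called. The libraries labelled albino CN3 3 and 4 added 12.3 and 10.96 CPM of Musk and 66.5 and 49.7 CPM of Rapsn. Rapsn lost its call with offsets for GC content and exon length (0.20 ± 0.12, adjusted p = 0.334), and Musk kept it (-0.83 ± 0.15, adjusted p = 0.0108).

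The receptor subunits gave no call between the strains in EOM. Their log2 fold changes were -0.02 ± 0.09 for Chrna1, -0.01 ± 0.07 for Chrnb1, 0.06 ± 0.16 for Chrnd, 0.04 ± 0.09 for Chrne and 0.04 ± 0.42 for Chrng (SE). Chrne, for example, read 66.2 and 67.0 CPM in albino EOM and 57.8 to 69.9 CPM in C57BL/6 EOM, where the groups overlap. Agrn (0.05 ± 0.15), Lrp4 (-0.10 ± 0.10) and Dok7 (0.28 ± 0.10, adjusted p = 0.0600) were not called either; Dok7 was called with upper quartile factors (0.34, adjusted p = 0.0364). In simulated data of this size 16.4% of genes changed 1.5-fold and 67.2% of those changed 2-fold were recovered. Only 67 genes were changed at each of these folds there, whereas 4934 of 15397 genes were called in the real comparison. The adjustment is stricter where few genes change, so these shares cannot say whether a 1.5-fold difference in the subunits would be missed. The SEs were 0.07 to 0.09 for Chrna1, Chrnb1 and Chrne. They were wider for Chrnd (0.16) and Chrng (0.42), where a difference is more easily missed.

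In TA 3 of the 9 genes tested differed between the strains, where 31.1% of 13295 genes were called; Chrng did not pass the filter. Rapsn read 36.8 and 34.3 CPM in albino TA and 25.8, 27.0, 24.9 and 25.1 CPM in C57BL/6 TA, without overlap, and rose by 0.44 ± 0.08 on the log2 scale (adjusted p = 0.00113, edgeR). Chrna1 read 13.5 and 13.4 CPM in albino TA and 16.9 to 18.2 CPM in C57BL/6 TA and fell by 0.42 (SE 0.10, adjusted p = 0.00499). Musk read 8.17 and 8.09 CPM in albino TA and 9.44 to 12.3 CPM in C57BL/6 TA, also without overlap, and was called at -0.41 ± 0.14 (adjusted p = 0.0419). The remaining 6 lay between -0.22 ± 0.17 (Lrp4) and 0.28 ± 0.19 (Chrnd). Among them Dok7, at 0.15 ± 0.16, stood at -0.21 without albino TA 3 and was called at 0.44 without albino TA 4 (adjusted p = 0.0475). With the libraries placed by markers Rapsn stood at 0.45 ± 0.08 (adjusted p = 8.3e-04), Chrna1 at -0.37 ± 0.12 (adjusted p = 0.0296) and Musk at -0.49 ± 0.16 (adjusted p = 0.0332), where 33.7% of genes were called.

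These TA calls are not equally firm. Musk lost its call in 4 of 6 fits that left out 1 library, namely without albino TA 3, albino TA 4, C57BL/6 TA 1 or C57BL/6 TA 4 (log2 fold changes of -0.44 to -0.33 over all 6 fits), and likewise under upper quartile scaling (adjusted p = 0.0763) and library totals (adjusted p = 0.0644). Rapsn lost its call with the GC and length offsets (0.09 ± 0.07, adjusted p = 0.408), which gave Chrnb1 one (-0.31 ± 0.09, adjusted p = 0.0222). Chrna1 was called in all 6 fits without 1 library, at -0.44 to -0.39. Of all genes tested in TA, TMM called 1950 higher and 2181 lower, upper quartile scaling 2442 and 1745, and the offsets 1269 and 2408.

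**Figure D5:**
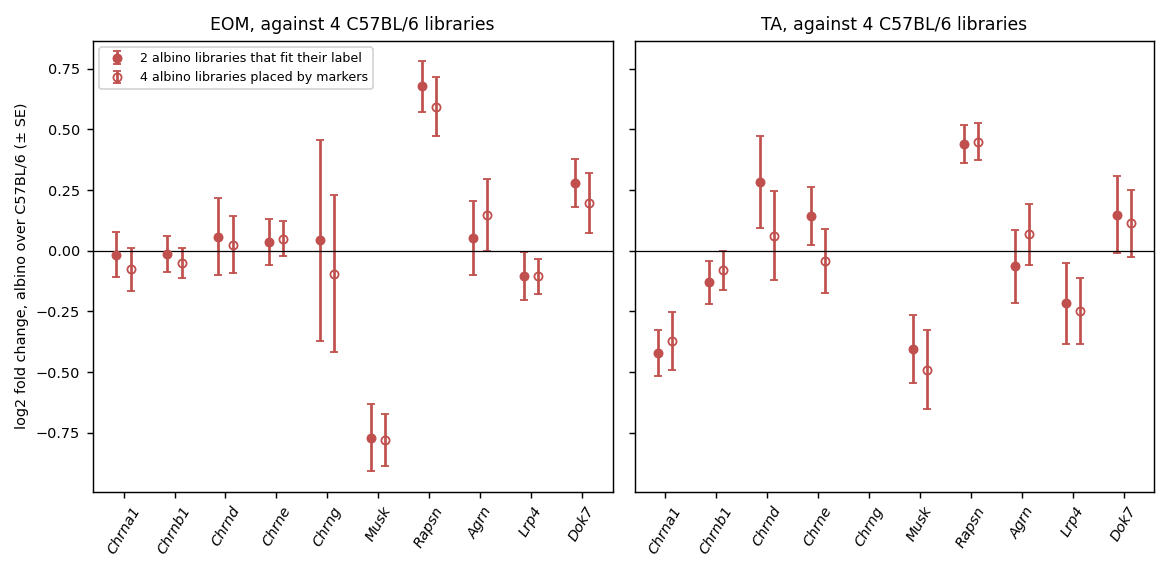
Log2 fold change of albino over C57BL/6 (y axis, error bars of 1 SE) of the 10 genes in EOM (left) and TA (right), with the 2 albino libraries that fit their label (filled) and with the 4 placed by their markers (open), each against 4 C57BL/6 libraries; Chrng was not tested in TA. Rapsn lies above 0 in both muscles (0.68 and 0.44) and Musk below 0 in both (-0.77 and -0.41), while Chrna1 lies below 0 in TA (-0.42) and near 0 in EOM (-0.02); with offsets for GC content and exon length, which are not plotted, Rapsn was not called in either muscle.

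The difference between the muscles in the strain effect was itself tested. No gene of the 10 was called by edgeR, where 7.73% of 15670 genes were called; 1 of the 10, Chrna1, had an unadjusted p under 0.05, and DESeq2 and limma voom called 0. Musk differed by -0.37 ± 0.20 on the log2 scale (EOM minus TA, adjusted p = 0.267) and Rapsn by 0.23 ± 0.14 (adjusted p = 0.340). Chrna1 differed by 0.40 ± 0.12 (adjusted p = 0.0572), a value near the threshold: it was called with upper quartile factors (0.43, adjusted p = 0.0233), library totals (0.36), the CPM filter (0.40), the GC and length offsets (0.55) and without C57BL/6 EOM 1 (0.45), and not with the libraries placed by markers (0.34 ± 0.16, adjusted p = 0.164), where 13.0% of genes were called. Of all genes tested for the difference, TMM called 350 higher and 861 lower, upper quartile scaling 637 and 876, and the offsets 681 and 561.

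Other values moved with the strain in muscle, where 32.0% of all genes were called in EOM and 31.1% in TA. The 8 fibroblast genes summed to 3831 to 3930 CPM in albino EOM and 5183 to 5874 CPM in C57BL/6 EOM, with 6 of 8 lower, and to 1212 to 1251 CPM in albino TA and 452 to 646 CPM in C57BL/6 TA, with 7 of 8 higher. Fast fibre genes rose in EOM in 7 of 10, at 76177 to 78216 CPM in albino and 62785 to 70261 CPM in C57BL/6, and in TA in 1 of 10 with 1 lower. Of the 10 neuronal genes 4 were tested in TA, 1 higher and 1 lower. Snap25 read 2.84 and 0.970 CPM in albino TA and 0 in C57BL/6 TA. It passed the filter through albino TA alone and could only be called higher there. Camk2a, which muscle also expresses, read 536 to 540 CPM in albino TA and 594 to 640 CPM in C57BL/6 TA. The clock gene Arntl, picked after its values were seen, read 48.1 and 52.6 CPM in albino EOM and 3.79 to 6.90 CPM in C57BL/6 EOM, and 37.2 and 42.0 CPM in albino TA and 6.94 to 8.66 CPM in C57BL/6 TA. Dbp, another clock gene picked in the same way, went the other way. It read 14.7 and 14.9 CPM in albino EOM and 62.3 to 78.5 CPM in C57BL/6 EOM. In TA it read 17.3 and 19.2 CPM in albino and 44.0 to 53.3 CPM in C57BL/6. The part of the fibroblast, fibre, neuronal and clock gene differences in the Musk, Rapsn and Chrna1 values was not tested.

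In the brainstem samples no gene of the 10 was called between the strains. In CN3 7 were tested and 0 called, where 0.0804% of 16171 genes were called (0.283% with libraries placed by markers); 1 had an unadjusted p under 0.05, and DESeq2 and limma voom called 0. That gene was Agrn, at 260 and 225 CPM in albino CN3 and 265 to 347 CPM in C57BL/6 CN3 (-0.32 ± 0.11 on the log2 scale, edgeR adjusted p = 0.573). In CN6 6 were tested and 0 called, where 0.0246% of 16268 genes were called (0.120% with libraries placed by markers), with Lrp4 alone at an unadjusted p under 0.05 (-0.19 ± 0.08, adjusted p = 0.504), and DESeq2 and limma voom again called 0. Chrne, Chrng and Chrnd were too low to test in both nuclei, and Musk in CN6. The motor neuron genes Chat and Slc18a3 rose in albino CN3 (4.89 ± 0.40 and 6.11 ± 0.60), so the sampled neurons are not matched between the strains there; their part in the Agrn value was not tested.

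Other genes of the junction were taken from lists by role. Of 13 genes of the synaptic basal lamina, the matrix in the cleft, 12 rose and 1 fell in C57BL/6 EOM relative to TA, with a median of 1.23 on the log2 scale where the median of all 14408 genes was 0.102 and 42.3% of them were called higher. Colq, which tethers acetylcholinesterase in the cleft, read 51.3 to 55.3 CPM in EOM and 7.75 to 9.44 CPM in TA (1.95 ± 0.08, adjusted p = 6.45e-10). The matrix genes Nid1 (2.33 ± 0.07) and Lama4 (1.70 ± 0.10) rose as well; fibroblasts also make them. In albino EOM 7 of the 13 were higher than in albino TA and 0 lower, where 30.2% of all genes were called higher. With libraries placed by markers 9 were higher and 0 lower, where 36.6% of all genes were called higher. Between the strains 2 of 13 rose and 2 fell in EOM, among them Colq (0.56 ± 0.09, 73.5 and 80.4 CPM in albino and 51.3 to 55.3 CPM in C57BL/6) and Nid1 (-0.71 ± 0.09), where 32.0% of all genes were called. With libraries placed by markers 2 rose and 5 fell, where 39.0% of all genes were called. In TA 6 of 12 tested rose in albino and 0 fell, where 31.1% of 13295 genes were called, 1950 higher and 2181 lower. Prelp (0.98 ± 0.09) and Hspg2, the gene of perlecan (0.68 ± 0.09), led the list. The fibroblast genes rose there too.

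The postsynaptic membrane list, with dystrophin-complex genes, the neuregulin receptors and the muscle sodium channel, was mixed between the muscles. Of 14 genes 8 rose and 5 fell in C57BL/6 EOM relative to TA (median 1.06), where 77.2% of all genes were called and 42.3% were called higher. Scn4a, the sodium channel that fires the muscle action potential, fell by 1.29 (386 ± 23.7 CPM in EOM and 593 ± 19.2 CPM in TA, SD, n = 4 each), whereas Erbb3, a neuregulin receptor that Schwann cells also carry, rose by 2.56. Between the strains 8 of 14 fell in albino EOM and 1 rose, with a median of -0.64 where that of all genes was 0.00802. Of all 15397 genes tested there 32.0% were called, 2229 higher and 2705 lower. Dmd, dystrophin, read 120 and 159 CPM in albino EOM and 295 to 349 CPM in C57BL/6 EOM (-1.22 ± 0.14, adjusted p = 8.44e-04), and Ank3 93.9 and 103 against 151 to 178 CPM (-0.67 ± 0.09). In TA 3 of 13 fell and 0 rose, where 31.1% of all genes were called. Dmd fell by 0.41 and Dtna, dystrobrevin alpha, by 0.26.

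Partners of MuSK and rapsyn in signalling moved both ways between the muscles. Of 19, 9 rose and 9 fell in C57BL/6 EOM, a share higher near the 42.3% of all genes, with a median of -0.04; Prkar1a, a regulatory subunit of protein kinase A, rose by 1.33, the kinase Fyn by 1.97 and the kinase Pak1 by 1.74. In albino EOM 10 of 19 fell relative to C57BL/6 and 0 rose, where 32.0% of all genes were called, 2229 higher and 2705 lower. Sorbs2 stood at -0.92 ± 0.09 and Apc, which binds receptor clusters, at -0.78 ± 0.11. In albino TA 4 of 19 rose and 6 fell, where 31.1% of all genes were called. Apc fell there by 0.43 and the adaptor Crk by 0.45. Of 5 genes of sugar attachment, in which receptor glycosylation is disturbed in some inherited myasthenias, 2 rose and 2 fell in C57BL/6 EOM. The values were 0.54 for Gmppb, -0.57 for Dpagt1 and -0.39 for Alg2, where 77.2% of all genes were called. Gfpt1, the first enzyme of that sugar pathway, fell in albino EOM (48.2 and 55.5 CPM in albino and 68.8 to 84.6 CPM in C57BL/6, -0.60 ± 0.11) and in albino TA (-0.38 ± 0.07).

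Genes whose levels change when muscle loses its nerve, not all in 1 direction, and factors that drive transcription under the junction, were read as separate lists. Of 10 denervation genes tested (11 listed) 6 rose and 3 fell in C57BL/6 EOM, with a median of 1.21, where 77.2% of all genes were called and 42.3% were called higher. Sln, sarcolipin, read 181 to 211 CPM in EOM and 1.36 to 1.53 CPM in TA (6.37 ± 0.09), and Myog, a MyoD family factor, read 19.0 to 21.2 CPM in EOM and 1.46 to 3.46 CPM in TA (2.56 ± 0.21). Dach2, a repressor of Myog, fell by 3.79 (0.479 to 1.13 CPM in EOM and 4.16 to 7.25 CPM in TA). In albino EOM Myog rose relative to C57BL/6 by 0.56 ± 0.11 and Myod1 by 0.78 ± 0.14. Of 11 denervation genes tested there 2 rose and 3 fell, where 32.0% of all genes were called. In TA 1 of 9 rose (Hdac4, 0.68) and 1 fell (Gadd45a, -0.53), where 31.1% of all genes were called. Of 5 transcription genes tested Etv5, an Ets factor of the junction, rose in C57BL/6 EOM by 1.38 (66.3 to 75.3 CPM in EOM and 16.3 to 18.0 CPM in TA), Egr1 rose by 1.76 and Gabpa, the N-box factor, was called at -0.17 ± 0.07 (adjusted p = 0.0485). Gabpa fell by 0.64 in albino EOM and Etv5 by 0.68 in albino TA. In each muscle 2 of 5 transcription genes fell and 1 rose, beside the same 32.0% and 31.1% of all genes called. The riser was Egr1, which spread widely (29.3 and 128 CPM in albino EOM, 10.3 and 27.8 CPM in albino TA).

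Neuronal receptor subunits were mostly too low to test in muscle. Of 11, 4 passed the filter between C57BL/6 EOM and TA, 3 higher and 1 lower, where 77.2% of all genes were called. Chrna4 read 8.79 to 14.7 CPM in EOM and 0.346 to 0.930 CPM in TA (3.55 ± 0.26), Chrna10 fell by 1.21, and Chrna3 read 0.551 to 1.08 CPM in EOM and 0 in all 4 TA libraries. Chrna3 thus passed the filter through EOM alone and could only be called higher. Subunits low in both muscles are not in the count. Between the strains in EOM 6 were tested, 1 higher and 1 lower in albino, where 32.0% of all genes were called. Chrna10 rose relative to C57BL/6 (0.56 ± 0.12). Chrnb4, at 0 in both albino EOM libraries, was called lower (edgeR adjusted p = 0.0231). It read only 0.184 to 0.609 CPM in C57BL/6 EOM, so that call rests on low counts. Chrnb4 passed the filter there through C57BL/6 alone and could only be called lower. With libraries placed by markers Chrnb4 was no longer at 0 in every albino EOM library and did not pass the filter. Of 5 subunits tested 2 then rose and 0 fell, where 39.0% of all genes were called. The motor neuron genes present in EOM and at 0 in TA, given above, move with Chrna3 and their part was not tested.

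Genes that most resembled the fetal and adult subunits were ranked by Pearson r of log2 CPM over the 24 libraries, which share strains, tissues and depth. For Chrng they were Igfbp4 (0.985), Wfs1 (0.984), Nfatc4, Cdon and Selenbp1 (0.983 each). Igfbp4 read a mean of 292 CPM in C57BL/6 EOM and 25.8 CPM in C57BL/6 TA. For Chrne the list opened with another subunit, Chrnb1 (0.993), followed by Dpep1, Ndufs1 and Creg1 (0.991 each) and Myl10 (0.990). For Chrne these values describe the contrast of muscle with brain and of EOM with TA in the same libraries. Chrng had 0 to 4 counts a library in TA and at most 2 in brain. Its values therefore describe mainly EOM against libraries at or near 0.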

How the data were processed

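The values are raw counts of reads for each gene symbol, as the authors deposited them, with no normalization. Trimmomatic 0.33, FastQC, HISAT2 2.1.0, mm10, featureCounts and edgeR are named in the submitters' processing notes; the annotation, strand setting and filters are not given in the sources used here. Without strand, reads of Chrne and 4930544D05Rik, and of Rapsn and Gm13778 (4 shared exon bases), cannot be told apart where they overlap.

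The 10 genes, the gene lists and the placement of albino libraries by markers were chosen with earlier results of these data known. Libraries ranged from 18544334 to 44254021 counts. Counts were analysed with edgeR 4.0.16 in R 4.3.3: filterByExpr, TMM factors, glmQLFit and glmQLFTest, with Benjamini-Hochberg adjustment over all genes tested in a comparison and a call at an adjusted p under 0.05. Each comparison was fitted on its own groups. SEs come from the F statistic. CPM are relative to library totals, log2 CPM for likeness use a prior count of 2, and 14 gene lists were counted. The exact permutation test enumerates all regroupings.

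Alternatives were DESeq2 1.42.0 size factors and its Wald test, limma 3.58.1 voom with quality weights, upper quartile factors, no filter, CPM of at least 1 in at least 2 libraries, natural splines (5 degrees of freedom each) for GC and length, a replicate block, leaving out each library, all libraries as labelled and libraries placed by markers. Library totals without factors were added after seeing the data. Exon lengths and positions from GENCODE M21 matched 23350 symbols (95.6%), and promoters from RefSeq matched 7 of 10 genes. Named are all 10 genes, overlapping genes, per list 3 called in C57BL/6 EOM against TA and up to 2 per strain comparison by adjusted p, and the 5 most like Chrng and Chrne. Arntl, Dbp and Hoxb3 were named after their values were seen, and some list genes are not reported by name here. The fit was tested on simulated data: of genes changed 2-fold 74.6% were recovered for C57BL/6 EOM against TA, 67.2% for strain in EOM and 83.6% for strain in TA, with 12, 11 and 9 false calls.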

Additional observations from a re-analysis of the deposited data

Results flagged for a closer look

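In 5 of 58 groups of 4 libraries tested, 1 library stood far from the other 3; chance gives about 1 in 20. C57BL/6 CN6 2 had the highest Chrna1 of its group (1.504 CPM, the others 1.15 to 1.21) and the lowest Dok7 (11.1 CPM, the others 14.4). Among the albino libraries placed by markers, the library labelled albino CN6 3 had the lowest Musk of the TA libraries (4.95 CPM, the others 8.09 to 8.28), the library labelled albino CN3 4 the lowest Rapsn of the EOM libraries (49.7 CPM, the others 64.1 to 66.5), and albino TA 4 the highest Lrp4 (15.97 CPM, the others 12.8 to 13.4).

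The muscle gene Chrnd was present in 4 libraries labelled as brainstem that no main comparison uses. The libraries labelled albino CN3 3 and 4 held 39.7 and 38.6 CPM, while C57BL/6 CN3 held 0 in all 4 libraries. In the pair with the label albino CN6 (replicates 3 and 4) it stood at 3.16 and 3.11 CPM, while C57BL/6 CN6 held 0 in all 4.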

How the results depend on the processing

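Over 1089 gene-level values under other settings, 1037 kept their side of the threshold and their direction where called, 28 lost a call, 17 gained one and 7 turned. With library totals Rapsn turned in C57BL/6 EOM against TA (0.66) and Musk in albino EOM against TA (0.50). With the GC and length offsets Musk (-0.19) and Dok7 (-0.31) turned in C57BL/6 and Rapsn (-0.52) in albino EOM against TA. With all libraries as labelled Rapsn turned between the strains in EOM (-0.28) and TA (-0.54), the groups then holding muscle and brain. As labelled, 0 genes were called in albino EOM against TA, 1 between the strains in EOM, 18 in TA, 33 for the difference, and 0 in CN3 and CN6, with 0 of the 10 genes called in albino EOM against TA and between the strains in EOM and TA.

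Strain calls in EOM numbered 4934, but 2641 with the replicate block and 1733 with the offsets (1 of the 10 genes), and 2738 to 4811 without 1 library (lowest without albino EOM 3). In TA they numbered 4131, and 2484 to 3849 without 1 library (lowest without albino TA 3). The difference between the muscles gave 1211, 1924 by DESeq2, 1988 with libraries placed by markers and 591 to 1355 without 1 library, low without albino EOM 3 (591), albino TA 3 (605) or albino TA 4 (593); Chrna1 brought the genes of the 10 called from 0 to 1 with upper quartile factors, library totals, the CPM filter, the replicate block and the offsets, and to 0 to 1 without 1 library. CN3 gave 13 calls, 21 with no filter, 101 by DESeq2, 20 by limma voom, 5 with the replicate block, 45 placed by markers and 2 to 12 without 1 library. CN6 gave 4, 21 with no filter, 106 by DESeq2, 8 by limma voom, 0 with the replicate block (627 at an unadjusted p under 0.05), 19 placed by markers and 4 to 950 without 1 library, the highest without albino CN6 2, which leaves albino CN6 1 alone. The Chrng to Chrne difference between EOM and TA was 1.89 to 2.63 without 1 library, where 3 against 4 cannot go below p = 0.0571 in the exact permutation test. Where a group fell to 1 library, that library is assumed to vary like the others. The causes were not tested.

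Same-numbered C57BL/6 EOM and TA libraries did not deviate together (r of 0.035, -0.006, 0.113 and 0.018). The 2 albino pairs gave 0.19 each, against -0.19 for unlike numbers. With 2 libraries a group the deviations mirror each other, so these are a single value and cannot decide. Therefore the replicate block above rests on numbers alone; under it Musk in TA lost its call (adjusted p = 0.0723) and Chrna1 gained one for the difference (0.0469). Depth limits Chrng in TA, at 0 to 4 counts a library, and the subunits in brain.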
